A study of Mus musculus with 2 samples.

Results

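The vessel growth genes described here are the ligands Vegfa, Angpt1, Angpt2 and Pdgfb, the receptors Kdr, Flt1, Tek and Pdgfrb, and the pair Adgra2 and Reck, which serve the Wnt7 signal at brain vessels. They were chosen by symbol and make up 10 of the 32285 genes of the count tables. Most Vegfa counts lay in the neural classes, which also held most of the cells, and the Vegfa level was highest in meningeal-like cells. The endothelial-like cells held most of the Kdr, Flt1 and Tek counts. Pdgfb was highest in endothelial-like and Pdgfrb in pericyte-like cells, with 0 counts of Pdgfrb in the endothelial-like cells. Meningeal-like cells held 24.8% of the Pdgfrb counts and Cajal-Retzius-like cells 14.0% of the Pdgfb counts. Reck was spread over neural and vessel cells alike.

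The brain has no vessel precursors of its own, and its vessels grow in from the surrounding plexus toward the ventricles during cortical development. VEGF-A from neural progenitors acts on endothelial cells through VEGFR2, the product of Kdr, while VEGFR1, the product of Flt1, binds the same ligand strongly and signals weakly, so that it can act as a decoy. Angiopoietin-1 activates and angiopoietin-2 modulates the receptor TIE2 (gene Tek), PDGF-B from endothelial cells recruits pericytes that carry PDGFRβ, and GPR124 (gene Adgra2) with RECK relays WNT7A and WNT7B signals to endothelial cells of the central nervous system.

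Single cell RNA sequencing (scRNA-seq) was performed on dissociated cells of the dorsal telencephalon of mouse embryos at E14.5, in droplets with a kit that reads the 3' ends of RNA; there were 2 libraries, which the labels number as replicates 1 and 3. Both samples belonged to 1 group with the genotype label WT, from the control animals of the EomesMllt3 colony (spelled EoMltt3 in the sample titles) of an Eomes-Cre line on a C57BL/6J background. Eomes-Cre drives recombination in intermediate progenitors of the cortex; whether these embryos carried Cre or floxed alleles was not stated. The study's methods say that samples were loaded independently and name several embryos for its sequencing at this age, without tying embryos to these 2 libraries. As separate embryos are therefore not stated for the samples, p-values measure only the spread between these samples, which may be technical.

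Counts of unique molecular identifiers (UMIs), each marking 1 captured RNA molecule, summed to 64182006 over 6163 cell barcodes in replicate 1 and to 93295807 over 8870 in replicate 3, with medians of 9802 and 9754 UMIs per barcode. After filtering, 5184 and 6952 cells formed 26 clusters, of which 21 were named as 1 of 10 classes. The libraries shared 23 barcodes, 16 of them kept cells and 0 of them in the endothelial-like or pericyte-like class. The 10 genes took no part in clustering or naming, although the classes come from the same cells in which the genes were counted, and Flt1, Kdr and Tek were among the 10 leading genes of the endothelial-like cluster by fold.

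The vessel side rested on few cells. The endothelial-like class held 26 cells of replicate 1 and 54 of replicate 3, and the pericyte-like class 40 and 45. The meningeal-like class, led by the collagens of the fibroblasts that cover the brain, held 50 and 146. On the neural side, there were 723 and 1632 radial glial cell (RGC)-like cells, 508 and 961 intermediate progenitor cell (IPC)-like cells, and 2696 and 2818 projection neuron-like cells.

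The defining markers matched the vessel names. Cldn5, the tight junction protein of brain endothelium, stood at 2590 and 2077 CPM (the gene's share of a class's UMIs, scaled to 1000000) in the endothelial-like cells of replicates 1 and 3, against 2.10 and 1.62 CPM in the pericyte-like cells. Rgs5, a pericyte marker, stood at 3979 and 3024 CPM in the pericyte-like cells and at 0 in the endothelial-like cells. Of the 11 endothelial markers, Esam (134 and 141 CPM), Emcn (264 and 170 CPM) and Ramp2 (126 and 84.4 CPM) had the highest levels in the pericyte-like cells, where the list summed to 576 and 454 CPM against 8026 and 7049 CPM in the endothelial-like cells, with 3 and 2 genes at 0. The 10 pericyte markers summed to 3.70 and 9.17 CPM in the endothelial-like cells, with 9 and 7 genes at 0, against 9226 and 6683 CPM in the pericyte-like cells. The 5 smooth muscle markers summed to 428 and 1154 CPM in the pericyte-like cells, with 0 genes at 0, so that the class also held smooth muscle transcripts, more of them in replicate 3; in the endothelial-like cells they summed to 25.9 and 18.3 CPM. The meningeal markers summed to 6620 and 6321 CPM in the meningeal-like cells and to 528 and 800 CPM in the pericyte-like cells. The 8 RGC markers summed to 6774 and 5126 CPM in the RGC-like cells. In the endothelial-like cells they summed to 1545 and 1404 CPM (2 and 0 genes at 0). In the pericyte-like cells it was 1694 and 1971 CPM (3 and 3 genes at 0), and in the meningeal-like cells 2290 and 2510 CPM (2 and 1 genes at 0). The 9 projection neuron markers summed to 370 and 506 CPM in the endothelial-like, 1117 and 1156 CPM in the pericyte-like and 194 and 133 CPM in the meningeal-like cells. In the pericyte-like cells Neurod2 stood at only 0 and 1.62 CPM and Neurod6 at 12.6 and 22.7 CPM. The projection neuron-like cells held 461 and 431 CPM of Neurod2 and 914 and 921 CPM of Neurod6. Other markers of the list therefore gave most of the pericyte-like sum. Red blood cell markers summed to 88.8 and 439 CPM in the endothelial-like cells. Replicate 3 was likewise higher in the pericyte-like (128 and 385 CPM), meningeal-like (78.0 and 402 CPM) and projection neuron-like cells (396 and 682 CPM), but not in the RGC-like cells (571 and 547 CPM). The part of these other markers in the results below was not tested.

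**Figure D1:**
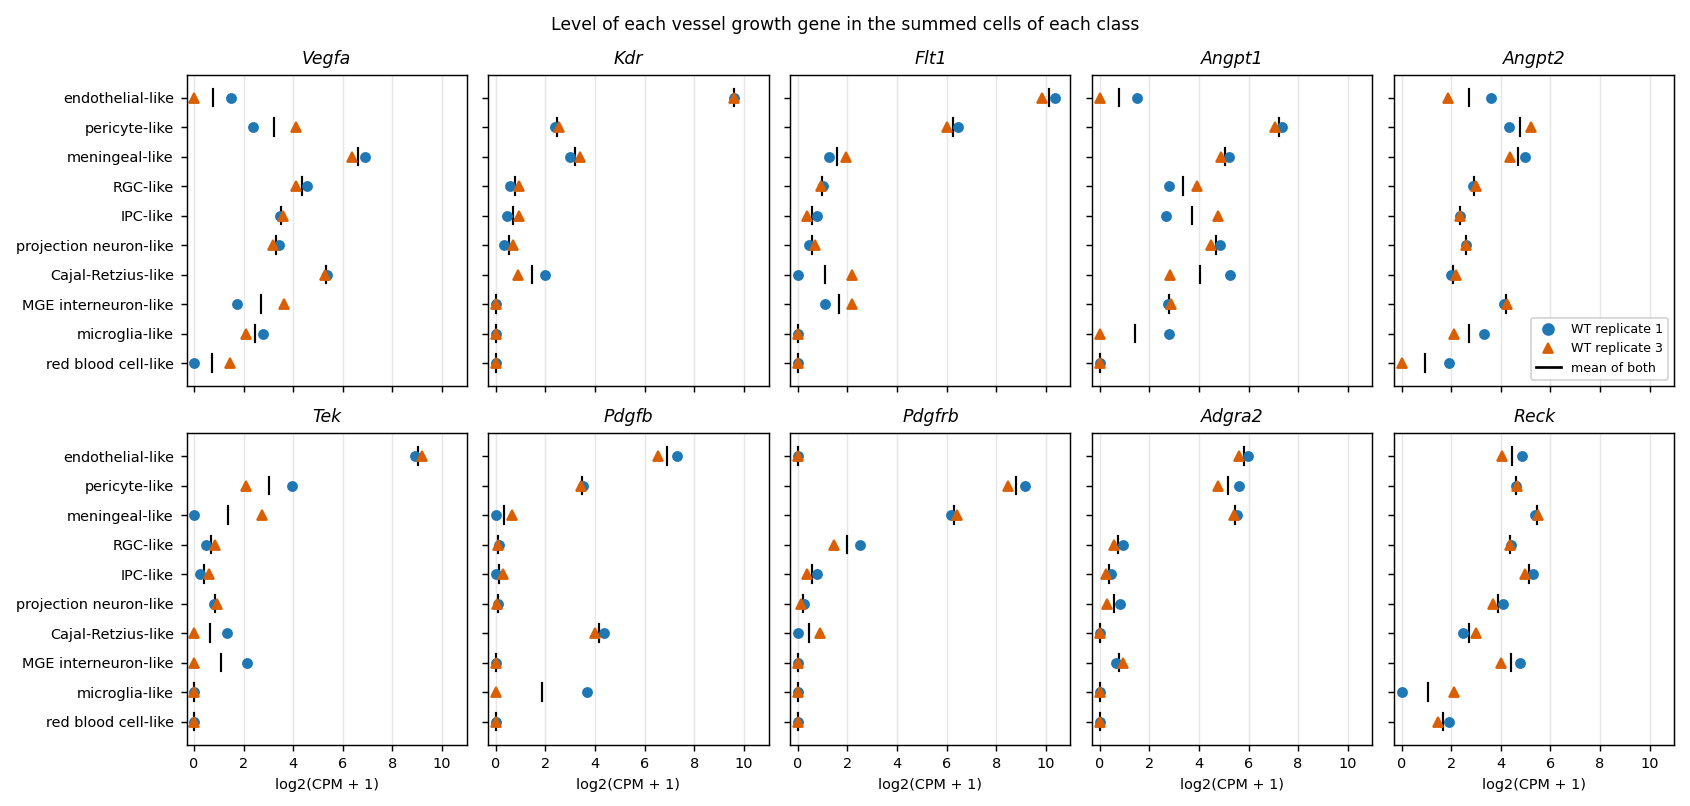
Level of each of the 10 genes, as log2(CPM + 1) on the x axis, in the summed cells of each of the 10 classes, with circles for WT replicate 1, triangles for WT replicate 3 and a bar at their mean. Kdr, Flt1 and Tek stand apart in the endothelial-like class, Pdgfrb in the pericyte-like class, and Vegfa is highest in the meningeal-like class and lowest, beside red blood cell-like cells, in the endothelial-like class.

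Vegfa encodes the main attractant and survival factor of growing vessels. In the meningeal-like cells it stood at 118 CPM in replicate 1 and 82.8 CPM in replicate 3 (mean 100.2 ± 24.7, SD, n = 2), in the Cajal-Retzius-like cells at 40.4 and 37.8 CPM, and in the RGC-like cells at 22.7 and 16.5 CPM. These 3 classes followed each other without overlap between replicates. Below them, the IPC-like cells (10.1 and 11.1 CPM), pericyte-like cells (4.19 and 16.2 CPM), projection neuron-like cells (9.92 and 8.02 CPM) and MGE interneuron-like cells (2.30 and 11.6 CPM) overlapped with their neighbours in the order. The endothelial-like cells were lowest of the named brain cells, with 1 UMI in all 80 cells. Vegfa was thus low in the class that carried its receptors and present in every neural class.

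Vegfa was lower in the endothelial-like than in the RGC-like cells, the log2 fold change being -3.98 ± 0.88 (SE; adjusted p = 0.000985). This and every adjusted p below came from the quasi-likelihood test of edgeR, adjusted after Benjamini and Hochberg. The ratio of the 2 levels was 24.1, with a counting interval from 4.31 to 955, since it rests on 1 UMI. Such ratios, given where a class held 1 to 3 UMIs, come from UMIs pooled over both replicates, and hold no prior count, which draws the fitted log2 fold changes of low genes toward 0. Against the meningeal-like cells the log2 fold change was -6.46 ± 0.77 (adjusted p = 1.47e-06), a ratio of 121 with an interval from 21.5 to 4810. The difference from the pericyte-like cells, -3.30 ± 1.09 on the log2 scale (adjusted p = 0.0341, from 0.026 to 0.097 over the alternatives), passed the threshold under 5 of 9 alternatives, and was -0.87 in replicate 1 alone and -4.11 in replicate 3 alone. Values given for 1 replicate alone are log2 ratios of CPM + 1, with no test.

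The meningeal-like cells exceeded the RGC-like cells in Vegfa by 2.48 ± 0.39 on the log2 scale (adjusted p = 2.73e-05) and the pericyte-like cells by 3.16 ± 0.53 (adjusted p = 0.000194). The Cajal-Retzius-like cells, early neurons of the marginal zone below the meninges, exceeded the projection neuron-like cells by 1.79 ± 0.41 (adjusted p = 0.00302). Both classes with the highest levels are therefore found, by background knowledge, at the outer surface of the cortex. The comparisons of Cajal-Retzius-like with projection neuron-like cells, and of meningeal-like with RGC-like and endothelial-like cells, were added after the levels had been seen.

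Along the neural lineage the differences in Vegfa were small. RGC-like cells were higher than projection neuron-like cells in both replicates, with a log2 fold change of 0.78 ± 0.36 (adjusted p = 0.0787), which passed the threshold under 7 of 11 alternatives, among them the replicate as a block (adjusted p = 0.0415, from 0.0076 to 0.123 over the alternatives). The difference from IPC-like cells, 0.82 ± 0.37, did not pass (adjusted p = 0.133, from 0.0235 to 0.16 over the alternatives), although it did under 3 of 11 alternatives. For IPC-like against projection neuron-like cells it was -0.03 ± 0.37 (adjusted p = 0.963).

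Within the neural classes, the 4 RGC-like clusters lay close together, from 15.4 to 19.3 CPM with both replicates summed. The 3 IPC-like clusters ran from 4.26 CPM in the cluster led by mitotic genes (Cenpe, Rrm2) to 18.0 CPM in a cluster led by Gadd45g and Smoc1, and the 7 projection neuron-like clusters from 3.27 to 14.1 CPM. By number of molecules, the RGC-like cells held 32.1% and the projection neuron-like cells 32.0% of the 1772 Vegfa UMIs, the meningeal-like cells 13.1% from 196 cells, and the 2 vessel classes together 0.734%. The order of the RGC-like and projection neuron-like cells differed between libraries, with 29.3% and 40.6% in replicate 1 and 34.3% and 25.4% in replicate 3.

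The annotated gene, at chr17:46016993-46032377 on the minus strand of GRCm38.p6, has 2 start windows of 250 bases in the RefSeq promoter table. The inner one holds the only match among the 6 windows of these genes to ACGTG, a form of the core of the hypoxia response element. Other forms of this core were not searched. The matching stretch at chr17:46025357-46025386, read on the gene's strand with the match (ACGTG on the other strand) in capitals, is shown because hypoxia is the classical inducer of this gene.
Vegfa, inner start: ggagtgcgtgccCACGTcagagagcaacat
Of 32851 promoter windows of the same length, 16.6% hold ACGTG on either strand, so the match is a description of these letters and not of a bound site.

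Kdr encodes VEGFR2, the receptor that carries most of the VEGF-A signal in endothelial cells. In the endothelial-like cells it stood at 783 and 790 CPM in replicates 1 and 3 (786 ± 5.08, SD, n = 2). The meningeal-like cells followed at 6.84 and 9.64 CPM and the pericyte-like cells at 4.19 and 4.87 CPM, the latter from 5 UMIs. Each named neural class stayed under 1 CPM in both replicates except for the Cajal-Retzius-like cells at 2.99 and 0.879 CPM. Unnamed cluster 19, described below, stood at 66.7 CPM with both replicates summed. The endothelial-like class lay far from all others in both replicates. Against the RGC-like cells the log2 fold change was 9.63 ± 0.41 (adjusted p = 1.23e-10), against the pericyte-like cells 7.35 ± 0.46 (adjusted p = 3.64e-08) and against the meningeal-like cells 6.48 ± 0.39 (adjusted p = 1.53e-08).

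Flt1 encodes VEGFR1. Its level in the endothelial-like cells was 1330 CPM in replicate 1 and 926 CPM in replicate 3. The pericyte-like cells came second with 88.0 and 63.3 CPM, from 42 and 39 UMIs, and the remaining classes stayed under 4 CPM. The order of the first 2 classes and their distance from the rest held in both replicates. On the log2 scale, endothelial-like cells exceeded RGC-like cells by 9.91 ± 0.45 (adjusted p = 9.82e-11) and pericyte-like cells by 3.92 ± 0.36 (adjusted p = 8.49e-07), and pericyte-like cells exceeded RGC-like cells by 5.99 ± 0.41 (adjusted p = 1.05e-08). The meningeal-like cells were below the pericyte-like cells in Flt1 (-4.80 ± 0.51, adjusted p = 5.66e-06).

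The receptors Flt1 and Kdr thus differed in their second class. In the pericyte-like cells there were 21.0 Flt1 UMIs per Kdr UMI in replicate 1 (95% counting interval from 5.46 to 179) and 13 in replicate 3 (from 4.13 to 65.8), against 1.70 (from 1.51 to 1.92) and 1.17 (from 1.05 to 1.31) in the endothelial-like cells, and the intervals of the 2 classes did not overlap in either replicate. With the 10 pericyte-like cells that had any UMI of Cldn5, Pecam1 or Cdh5, and 1 endothelial-like cell with pericyte UMIs, left out, a rule added after the data were seen, the log2 difference of pericyte-like from RGC-like cells was 6.02 for Flt1 and 1.80 for Kdr. The Kdr difference of pericyte-like from RGC-like cells, 2.28 ± 0.65 with all cells (adjusted p = 0.0123, from 0.00088 to 0.151 over the alternatives), then no longer passed the threshold (adjusted p = 0.0800).

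Tek encodes TIE2, the receptor of both angiopoietins. It stood at 483 and 580 CPM in the endothelial-like cells, at 14.7 and 3.25 CPM in the pericyte-like cells (9 UMIs) and at 0 and 5.67 CPM in the meningeal-like cells. Among the next 7 classes each overlapped with its neighbour in the order, although the pericyte-like cells lay above the RGC-like, IPC-like and projection neuron-like cells in both replicates. Endothelial-like cells exceeded RGC-like cells by 9.20 ± 0.61 on the log2 scale (adjusted p = 2.38e-09) and pericyte-like cells by 5.96 ± 0.63 (adjusted p = 2.47e-06). The difference of pericyte-like from RGC-like cells, 3.24 ± 0.83 (adjusted p = 0.00518), was 3.48 in replicate 1 alone and 1.22 in replicate 3 alone.

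In single endothelial-like cells the 3 receptors were found together. All of Kdr, Flt1 and Tek had a UMI in 24 of 26 cells of replicate 1 and in 47 of 54 cells of replicate 3. The median cell held 13.5 and 6 UMIs of Kdr, 23 and 8 of Flt1, and 6.5 and 5 of Tek in replicates 1 and 3, with the lower medians in the library whose endothelial-like cells were shallower (median 10427 UMIs against 17035). At an equal depth of 3000 UMIs per cell, which left out 1 and 14 cells, Kdr was detected in 84.0% and 80.0% of the endothelial-like cells, and Tek in 72.0% and 85.0%. Without thinning, the shares were 96.2% and 92.6% for Kdr and 92.3% and 94.4% for Tek. In projection neuron-like cells, which should lack Kdr, the thinned share was 0.0761% and 0.221%, at unthinned median depths of 11160 and 10800 UMIs.

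**Figure D2:**
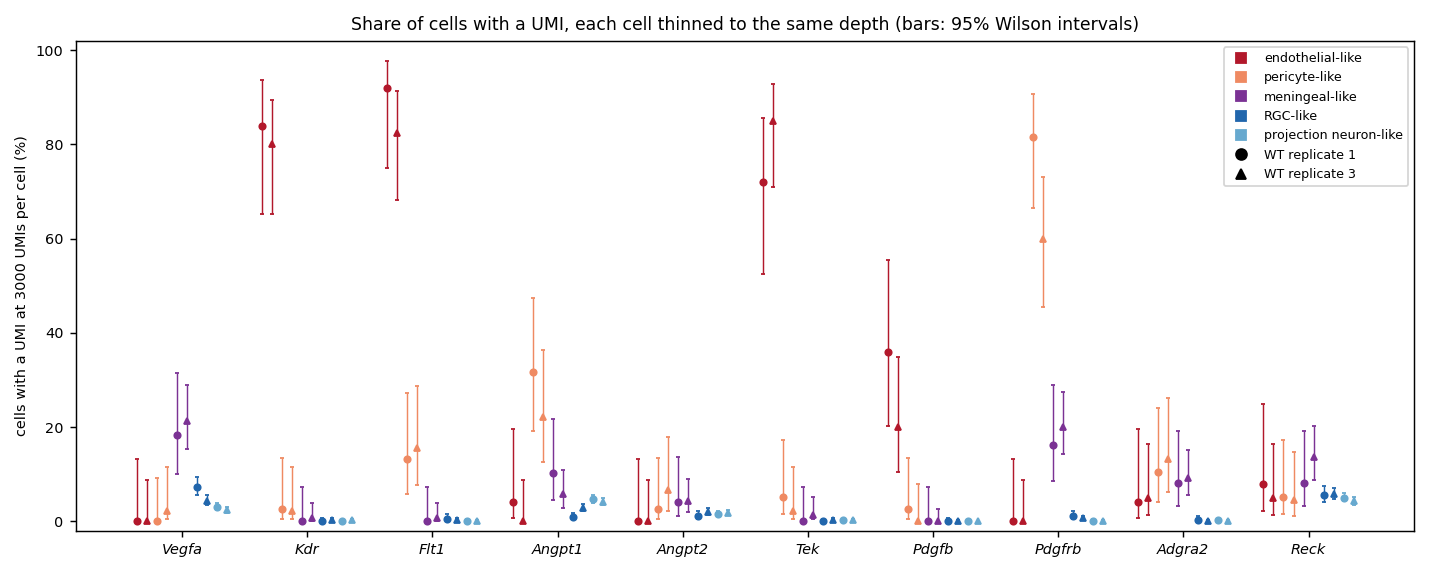
Percent of cells with at least 1 UMI of each gene on the y axis, after each cell was thinned to 3000 UMIs, in 5 classes (colours), with circles for WT replicate 1, triangles for WT replicate 3 and bars for 95% Wilson intervals of counting error. Kdr, Flt1 and Tek reach 72.0% to 92.0% of the endothelial-like cells and Pdgfrb 81.6% and 60.0% of the pericyte-like cells, while Vegfa stays at or below 21.4% in each class drawn.

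For comparison with the receptors, short stretches from the promoter windows of Kdr, Flt1 and Tek (GRCm38.p6, RefSeq) are given for their matches to GGAA, the core motif of the ETS factors that act in endothelial genes. Capitals mark GGAA, or TTCC where the match lies on the other strand, and each stretch is read on the gene's own strand.
Kdr, chr5:75978557-75978586, minus strand: gcgtgGGAAaccgGGAAacccaaacctggt
Flt1, chr5:147726034-147726063, minus strand: GGAAgtgggctggGGAAaggttataaatcg
Tek, chr4:94739217-94739246, plus strand: gatacccctattgTTCCtgaaaatgctgac
The windows of Kdr and Flt1 hold 4 matches each, that of Tek 2 and that of Reck 2, and the outer and inner windows of Vegfa hold 6 and 2. A match to GGAA on either strand occurs in 93.4% of all 32851 windows and 4 or more in 33.4%, so the matches are a description of the letters. The windows of Kdr (chr5:75932827-75979072), Flt1 (chr5:147561604-147726438) and the inner one of Vegfa lie inside the annotated gene, since each starts at 1 listed transcript. The window of Tek (chr4:94739039-94739288) lies partly inside its gene, which starts at 94739086, and the Tek stretch shown lies wholly inside it. The window of Reck (chr4:43875280-43875529) reaches just past its annotated start at 43875521.

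Angpt1 encodes angiopoietin-1, the activating ligand of TIE2. It was highest in the pericyte-like cells, with 164 and 135 CPM in replicates 1 and 3. The meningeal-like cells followed at 35.6 and 28.9 CPM and the projection neuron-like cells at 27.9 and 21.6 CPM, and from the projection neuron-like cells down each class overlapped with its neighbour. The endothelial-like cells held 1 UMI in replicate 1 and 0 in replicate 3. Pericyte-like cells exceeded endothelial-like cells with a coded log2 fold change of -7.05 ± 1.16 for endothelial-like against pericyte-like (adjusted p = 0.000161), a ratio of 192 with a counting interval from 34.0 to 7630. Against RGC-like cells they were higher by 3.98 ± 0.64 (adjusted p = 6.41e-05), and the meningeal-like cells were lower than the pericyte-like cells by -2.22 ± 0.66 (adjusted p = 0.0254, from 6.1e-05 to 0.089 over the alternatives), a call that 7 of 10 alternatives gave.

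Within the neural classes Angpt1 varied widely between clusters. Among projection neuron-like clusters it ran from 3.30 CPM in a cluster led by Hs3st4, a gene of corticothalamic neurons, to 89.6 CPM in a cluster led by Tafa1 and Tfap2d, where the replicates stood at 80.2 and 111 CPM. Among the RGC-like clusters it ran from 0.718 CPM in a mitotic cluster to 36.8 CPM in a cluster led by Ltbp1 and Rmst, with 17.8 and 42.0 CPM in the replicates. That cluster held 104 of the 723 RGC-like cells of replicate 1 and 396 of the 1632 of replicate 3, and the level of the whole class was 5.93 and 14.1 CPM. The cluster's size, its own level and the class level were thus all higher in replicate 3, and their parts were not tested. Some other clusters differed more between replicates in Angpt1. A projection neuron-like cluster led by Ldb2 stood at 47.5 CPM in replicate 1 and 8.64 CPM in replicate 3, and another led by Ndst3 at 7.25 and 26.3 CPM. The IPC-like cluster led by Kif26b stood at 6.58 and 40.9 CPM. The projection neuron-like class thus held clusters that differed between replicates in opposite directions.

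The RGC-like cells had less Angpt1 than the projection neuron-like cells, with a log2 fold change of -1.56 ± 0.57 (adjusted p = 0.0289, from 0.0092 to 0.106 over the alternatives), a call that 6 of 11 alternatives gave. The ratio was -2.06 in replicate 1 alone and -0.58 in replicate 3 alone. The IPC-like cells, at 5.31 and 26.1 CPM, spanned the levels of both. On the log2 scale the RGC-like cells differed from them by -0.69 ± 0.57 (adjusted p = 0.447), and they differed from the projection neuron-like cells by -0.87 ± 0.57 (adjusted p = 0.264). By molecules, the projection neuron-like cells held 46.7% of the 3348 Angpt1 UMIs, cells of unnamed clusters 25.6% and the pericyte-like cells, with the highest level, 4.81%.

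Angpt2 encodes angiopoietin-2, which is known from tip cells of sprouting vessels and can counter angiopoietin-1 at TIE2. It was low everywhere. The pericyte-like cells (18.9 and 35.7 CPM) and the meningeal-like cells (30.1 and 19.8 CPM) overlapped at the top, followed by the MGE interneuron-like cells at 16.6 and 17.8 CPM. The endothelial-like cells, at 11.1 and 2.62 CPM from 8 UMIs, overlapped with the RGC-like cells at 6.23 and 7.07 CPM (log2 fold change 0.09 ± 0.55, adjusted p = 0.917).

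Pericyte-like cells exceeded RGC-like cells in Angpt2 by 2.16 ± 0.41 on the log2 scale (adjusted p = 0.000284) and meningeal-like cells did so by 1.95 ± 0.37 (adjusted p = 0.000249). Endothelial-like cells were lower than pericyte-like cells, with a log2 fold change of -2.07 ± 0.56 (adjusted p = 0.0109, from 0.0024 to 0.0535 over the alternatives), which was -0.72 in replicate 1 alone and -3.34 in replicate 3 alone. Against the meningeal-like cells it was -1.86 ± 0.53 (adjusted p = 0.0126). Both angiopoietins were thus higher in pericyte-like than in endothelial-like cells, and in single pericyte-like cells Angpt1 had a UMI in 23 of 40 and 24 of 45, Angpt2 in 6 and 14, and both together in 4 and 8.

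Pdgfb encodes the B chain of PDGF, which endothelial cells release to draw pericytes. The endothelial-like cells held 155 and 91.7 CPM. The Cajal-Retzius-like cells came second with 19.4 and 14.9 CPM from 30 UMIs and the pericyte-like cells followed with 10.5 and 9.74 CPM from 11 UMIs, while the RGC-like, IPC-like and projection neuron-like cells together held 7 UMIs. The first 3 classes did not overlap between replicates. On the log2 scale, endothelial-like cells exceeded RGC-like cells by 8.29 ± 0.49 (adjusted p = 1.23e-10) and pericyte-like cells by 3.58 ± 0.52 (adjusted p = 3.20e-05). The fitted fold against RGC-like cells was 313, while the ratio of the pooled levels was 1820, with a counting interval from 494 to 15100, since it rests on 2 UMIs in the RGC-like cells.

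The Cajal-Retzius-like cells were the neural class that stood apart in Pdgfb. They exceeded the projection neuron-like cells by 5.32 ± 0.47 on the log2 scale (adjusted p = 9.88e-08), and the ratio of pooled levels, from 3 UMIs in the projection neuron-like cells, was 350 with an interval from 109 to 1790. A UMI was found in 7 of 41 and 13 of 86 of their cells, or 17.1% and 15.1%, and in 5.0% and 1.2% at 3000 UMIs per cell. In projection neuron-like cells, at a median depth of 11160 and 10800 UMIs against 15018 and 12562 in the Cajal-Retzius-like cells, the thinned share was 0 of 2627 and 0 of 2710 cells, which allows up to 0.114% and 0.111%, and the share without thinning was 0.0742% and 0.0355%. The 11 endothelial markers summed to 50.9 and 59.8 CPM in the Cajal-Retzius-like cells, with 6 and 5 genes at 0, against 15.6 and 17.6 CPM in the projection neuron-like cells. Of the Cajal-Retzius-like sums, Ramp2 gave 41.9 and 36.9 CPM and Cldn5 1.496 and 2.64 CPM. The 10 pericyte markers summed to 67.3 and 44.0 CPM in the Cajal-Retzius-like cells, with 6 and 4 genes at 0, against 2.31 and 4.10 CPM in the projection neuron-like cells. Rgs5 gave most of the Cajal-Retzius-like pericyte sums, at 55.3 and 30.8 CPM. The part of these markers in the Pdgfb counts was not tested.

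Pdgfrb encodes the PDGF-B receptor of pericytes. It stood at 568 and 357 CPM in the pericyte-like cells, at 71.2 and 84.5 CPM in the meningeal-like cells and at 4.72 and 1.73 CPM in the RGC-like cells, and these 3 classes did not overlap. In the pericyte-like cells of replicate 3, smooth muscle and meningeal markers summed higher and pericyte markers lower than in replicate 1. The part of these markers in the Pdgfrb difference between replicates was not tested. The endothelial-like cells held 0 UMIs in 26 and 54 cells, which allows a share of cells with a UMI of up to 11.5% and 5.56%. The pericyte-like level was at least 195-fold higher than that of the endothelial-like cells, set against a floor of 3 UMIs over both replicates (log2 fold change of endothelial-like against pericyte-like -10.41 ± 0.81, adjusted p = 3.02e-07). A UMI of Pdgfrb was present in 40 of 40 and 43 of 45 pericyte-like cells, and 17 and 15 of these also had a UMI of Flt1.

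Pericyte-like cells exceeded RGC-like cells in Pdgfrb by 7.23 ± 0.47 on the log2 scale (adjusted p = 1.46e-08), and meningeal-like cells were below pericyte-like cells (-2.56 ± 0.39, adjusted p = 0.000293) and above RGC-like cells (4.67 ± 0.43, adjusted p = 4.78e-07). A low level in the RGC-like cells, 83 UMIs in all, exceeded that of the projection neuron-like cells (2.63 ± 0.37, adjusted p = 2.45e-05) and of the IPC-like cells (2.01 ± 0.47, adjusted p = 0.00629). The first of these was 2.27 in replicate 1 alone and 1.32 in replicate 3 alone, the second 1.75 and 1.07. The 4 RGC-like clusters ran from 1.68 to 4.67 CPM. The 10 pericyte markers summed to 44.0 and 43.6 CPM in the RGC-like cells, with 1 and 1 genes at 0. In the projection neuron-like cells they summed to 2.31 and 4.10 CPM. Most of the RGC-like sums came from Notch3 (40.01 and 40.5 CPM in replicates 1 and 3), while Rgs5 stood at 1.01 and 1.11 CPM. The part of these markers in the Pdgfrb counts was not tested.

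**Figure D3:**
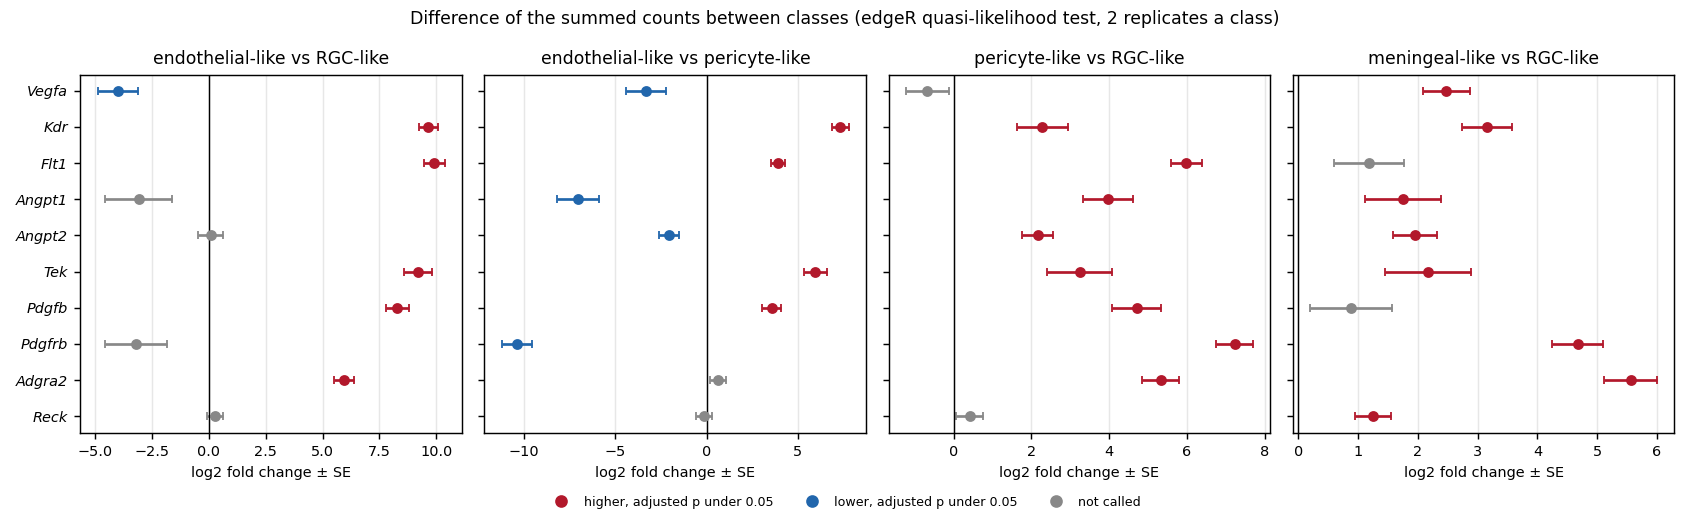
Log2 fold change (x axis, bars: SE) of the 10 genes in 4 of the 10 comparisons between classes, with n = 2 summed libraries a class. Red points are higher and blue points lower at an adjusted p under 0.05, and grey points were not called; Pdgfrb and Angpt1 fall and Kdr, Flt1, Tek and Pdgfb rise from pericyte-like to endothelial-like cells, and 8 of the 10 genes are higher in meningeal-like than in RGC-like cells.

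Adgra2 encodes GPR124 and Reck a membrane-anchored protein, and together they form the receptor complex that lets brain endothelium respond to WNT7A and WNT7B. Adgra2 stood at 62.9 and 48.5 CPM in the endothelial-like cells, at 45.2 and 41.4 CPM in the meningeal-like cells and at 48.2 and 26 CPM in the pericyte-like cells, and each named neural class stayed under 1 CPM. The endothelial-like cells lay above the meningeal-like cells in both replicates, though the difference did not pass the test (log2 fold change 0.38 ± 0.41, adjusted p = 0.552), nor did that from pericyte-like cells (0.62 ± 0.44, adjusted p = 0.382). Each of the 3 classes exceeded the RGC-like cells, by 5.94 ± 0.46 in endothelial-like (adjusted p = 3.33e-08), 5.56 ± 0.44 in meningeal-like (adjusted p = 5.67e-08) and 5.32 ± 0.48 in pericyte-like cells (adjusted p = 2.69e-07). Adgra2 was thus found in the endothelial-like, pericyte-like and meningeal-like cells, with no called difference among these 3 classes.

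Reck showed a different pattern. It stood at 41.0 and 44.2 CPM in the meningeal-like cells, 37.8 and 30.8 CPM in the IPC-like cells, 27.8 and 15.7 CPM in the endothelial-like cells and 20.3 and 19.5 CPM in the RGC-like cells. From the pericyte-like cells (23.1 and 24.3 CPM) through the endothelial-like and MGE interneuron-like to the RGC-like cells, neighbours in the order overlapped, and the endothelial-like cells did not differ from the RGC-like cells beyond the spread (log2 fold change 0.27 ± 0.35, adjusted p = 0.578). The meningeal-like cells exceeded the RGC-like cells by 1.25 ± 0.30 (adjusted p = 0.00201, from 8.2e-06 to 0.0561 over the alternatives). Against the meningeal-like cells the endothelial-like cells had a log2 fold change of -0.98 ± 0.36 (adjusted p = 0.0511), which passed under 8 of 11 alternatives, among them the replicate as a block (adjusted p = 0.0291, from 0.029 to 0.283 over the alternatives).

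Along the neural lineage, Reck was highest in the IPC-like cells. The RGC-like cells lay below them (log2 fold change -0.81 ± 0.28, adjusted p = 0.0394, from 0.0039 to 0.143 over the alternatives) and so did the projection neuron-like cells (IPC-like against projection neuron-like 1.011 ± 0.27, adjusted p = 0.00634, from 2.8e-05 to 0.0512 over the alternatives). The Cajal-Retzius-like cells, at 4.49 and 7.03 CPM, lay below the projection neuron-like cells (-1.44 ± 0.41, adjusted p = 0.0145, from 0.01 to 0.312 over the alternatives), with -1.61 in replicate 1 alone and -0.68 in replicate 3 alone. Projection neuron-like clusters ran from 4.32 CPM, in the cluster led by Hs3st4, to 35.9 CPM, in the cluster led by Tafa1 and Tfap2d, the same 2 clusters that bounded Angpt1.

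The 2 partners of the Wnt7 receptor were found together in part of the endothelial-like cells, and in a larger share in replicate 1, whose cells were deeper. In the endothelial-like cells, Adgra2 had a UMI in 17 of 26 and 20 of 54, Reck in 9 and 8, and both in 9 and 5. At 3000 UMIs per cell Adgra2 was detected in 4.0% and 5.0% of the endothelial-like cells, against 65.4% and 37.0% without thinning, so this share moved with the depth.

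**Figure D4:**
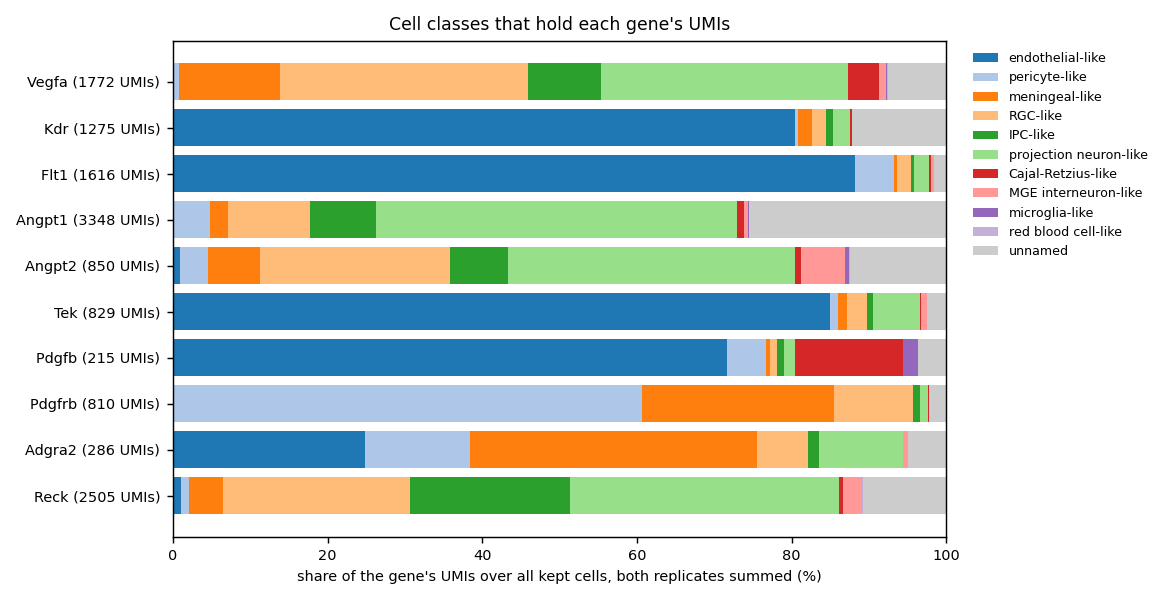
Percent of each gene's UMIs (x axis, both replicates summed over all kept cells) that each class holds, with the number of UMIs beside each gene. The endothelial-like class holds 80.5% of Kdr, 88.2% of Flt1, 84.9% of Tek and 71.6% of Pdgfb, while the neural classes hold 78.4% of Vegfa, 67.2% of Angpt1, 75.6% of Angpt2 and 82.7% of Reck. The neural classes also hold most of the UMIs of all genes.

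The share of a gene's molecules in each class depends on the size of the class as well as on the level of the gene. The endothelial-like class held 80.5% of the 1275 Kdr UMIs, 88.2% of the 1616 Flt1 UMIs and 84.9% of the 829 Tek UMIs. For Kdr its share was 91.2% in replicate 1 and 74.4% in replicate 3, while cells of unnamed clusters held 3.66% and 17.1%. The neural classes held 78.4% of Vegfa, 67.2% of Angpt1 and 75.6% of the 850 Angpt2 UMIs, in classes with many more cells. These classes also held most of the UMIs of all genes, with 63235982 in the projection neuron-like and 30738507 in the RGC-like cells against 1303973 in the endothelial-like cells. Shares of this size therefore show no higher level in neural cells. Pdgfb was the ligand with most of its molecules on the vessel side, with 71.6% of 215 UMIs in the endothelial-like and 14.0% in the Cajal-Retzius-like cells. Of the 810 Pdgfrb UMIs, the pericyte-like cells held 60.6% and the meningeal-like cells 24.8%. Of the 286 Adgra2 UMIs, the meningeal-like cells held 37.1% and the endothelial-like cells 24.8%, with meningeal-like shares of 23.9% in replicate 1 and 49.3% in replicate 3 and endothelial-like shares of 24.6% and 25.0%. The Adgra2 level of the meningeal-like cells was 45.2 and 41.4 CPM in these replicates, from 50 and 146 cells.

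All 10 genes were among the 12540 genes tested in each comparison. Of endothelial-like against RGC-like cells, 5 of the 10 were higher and 1 was lower, beside 21.1% higher and 19.2% lower of all genes tested. Of endothelial-like against pericyte-like cells, 4 were higher and 4 lower, beside 10.5% and 10.2% of all genes. Of pericyte-like against RGC-like cells, 8 were higher and 0 lower, beside 20% and 15.9%. These 3 comparisons share classes, and their counts are not independent.

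Of meningeal-like against pericyte-like cells, 1 was higher, 4 were lower and 5 were not called, beside 8.36% higher and 7.26% lower of all genes. Against RGC-like cells, 8 were higher and 0 lower in the meningeal-like cells, beside 23.8% and 18.4%. Among these 8, the Tek call (log2 fold change 2.17 ± 0.72, adjusted p = 0.0233) turned to -0.49 without replicate 3, since the meningeal-like cells of replicate 1 held 0 Tek UMIs. The Angpt1 call of this comparison (1.76 ± 0.64, adjusted p = 0.0327, from 0.018 to 0.145 over the alternatives) was 2.40 in replicate 1 alone and 0.98 in replicate 3 alone. Of endothelial-like against meningeal-like cells, 4 were higher and 4 lower, beside 12.9% and 13.9%.

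The comparison with meningeal-like cells separated the vessel genes further. Endothelial-like cells exceeded them in Flt1 by 8.72 ± 0.50 on the log2 scale (adjusted p = 4.11e-09), in Tek by 7.03 ± 0.63 (adjusted p = 2.84e-07) and in Pdgfb by 7.41 ± 0.68 (adjusted p = 1.07e-07), the last resting on 1 meningeal UMI (ratio 295, counting interval from 52.1 to 11700). Angpt1 was lower in endothelial-like cells (-4.83 ± 1.34, adjusted p = 0.0101, from 0.0007 to 0.0533 over the alternatives), as was Pdgfrb, with a meningeal-like level at least 35.0-fold higher than the floor of the endothelial-like cells. Meningeal-like cells still carried a little Kdr, which exceeded that of RGC-like cells by 3.15 ± 0.42 (adjusted p = 2e-05). Beside these values, the 11 endothelial markers summed to 484 and 560 CPM in the meningeal-like cells. Most of these sums came from Ramp2 (350 and 446 CPM) and Cdh5 (84.8 and 49.3 CPM), while Cldn5 stood at 2.74 and 1.70 CPM. The part of these markers in the Kdr counts was not tested.

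Low Pdgfb was present in the pericyte-like cells, from 11 UMIs. It exceeded that of the RGC-like cells by 4.71 ± 0.64 on the log2 scale (adjusted p = 6.68e-06, ratio 155 with a counting interval from 33.8 to 1440) and was 4.28 without the 10 cells that had endothelial marker UMIs. Meningeal-like cells were below pericyte-like cells in Pdgfb (-3.82 ± 0.95, adjusted p = 0.00805, from 0.0076 to 0.0816 over the alternatives), a ratio of 25.1 with an interval from 3.65 to 1080.

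Among neural classes few of the 10 genes were called. There were 1 higher and 1 lower in RGC-like against projection neuron-like cells, beside 21.1% and 28.1% of all genes, and 1 higher and 1 lower against IPC-like cells, beside 13.4% and 8.68%. Of IPC-like against projection neuron-like cells 1 was higher and 0 lower, beside 13.1% and 21.5%. Of Cajal-Retzius-like against projection neuron-like cells 2 were higher and 1 lower, beside 10.0% and 10.7%. Where 0 of the 10 genes were lower in these comparisons, 0 were lower at an unadjusted p under 0.05 by edgeR and 0 were called lower by DESeq2. Between RGC-like, IPC-like and projection neuron-like cells, at most 1 of the 10 genes was called in a direction, a share near or below that of all genes.

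Other genes of the same pathways were described from 8 lists, of which the counts below leave out the 10 genes. In the VEGF family, 3 of 6 genes tested were higher and 1 was lower in endothelial-like than in RGC-like cells, a comparison in which 21.1% of all genes were higher and 19.2% lower, with a median log2 fold change of 2.31 beside -0.06 over all genes. The higher genes were Flt4, the VEGF-C receptor (50.0 and 52.4 CPM against 1.21 and 0.625 CPM, log2 fold change 5.57), and the co-receptors Nrp1 and Nrp2. The lower one was Vegfb (7.40 and 14.4 CPM against 89.7 and 84.5 CPM, -2.71). Placental growth factor Pgf, a ligand of VEGFR1, stood at 56.6 and 51.9 CPM in the pericyte-like cells and at 0 and 1.31 CPM in the endothelial-like cells (endothelial-like against pericyte-like -5.61 ± 0.70, adjusted p = 1.21e-05), and so was highest in the class that came second in Flt1.

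Of the angiopoietin and Tie list, 3 of 4 genes were higher and 0 lower in endothelial-like against RGC-like cells (median log2 fold change 6.53), among them Ptprb, the phosphatase that acts on TIE2 (629 and 394 CPM against 0.402 and 0.192 CPM), and Tie1 (191 and 136 CPM against 0.101 and 0.144 CPM). In the PDGF list 1 of 4 was higher and 1 lower in the same comparison: Pdgfd, another ligand of PDGFRβ, stood at 159 and 55.0 CPM in the endothelial-like cells against 5.73 and 4.33 CPM, and Pdgfc at 3.70 and 2.62 CPM against 54.5 and 56.6 CPM. Pdgfd held 0 UMIs in the pericyte-like cells (endothelial-like against pericyte-like adjusted p = 5.23e-05). The tip cell and Notch genes of vessels had 9 of 12 higher and 0 lower, with a median of 5.09 and with the apelin receptor Aplnr at 194 and 276 CPM in the endothelial-like cells. Of the TGF-beta genes of vessels 6 of 10 were higher and 1 was lower, with a median of 1.59 and with endoglin (Eng) at 405 and 246 CPM. Both lists with 0 lower genes also had 0 lower at an unadjusted p under 0.05 and 0 by DESeq2.

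Of the Wnt7 list, 10 of 14 genes were higher and 2 lower in endothelial-like against RGC-like cells, with a median log2 fold change of 3.33. Wnt7a held 0 UMIs in the endothelial-like cells and stood at 37.8 and 28.2 CPM in the RGC-like cells, and the receptor Fzd4 stood at 40.7 and 38.0 CPM against 1.11 and 1.06 CPM. Against pericyte-like cells 8 of 14 were higher and 1 was lower, beside 10.5% and 10.2% of all genes, and the higher ones included Mfsd2a, a lipid transporter of the blood-brain barrier (253 and 111 CPM against 2.10 and 0 CPM). Along the neural lineage the ligands took opposite directions: Wnt7a was higher in RGC-like than in projection neuron-like cells (log2 fold change 3.39 ± 0.38, adjusted p = 3.52e-07) and Wnt7b was lower (-3.84 ± 0.36, adjusted p = 1.93e-08), with 97.3 and 106 CPM in the projection neuron-like cells.

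The mural recruitment list had 3 of 8 genes higher and 3 lower in endothelial-like against pericyte-like cells, beside 10.5% and 10.2% of all genes, with Ednra and S1pr3 at 0 UMIs in the endothelial-like cells and at 658 and 476 CPM and 149 and 99.0 CPM in the pericyte-like cells. The hypoxia response list, of genes known to rise together with Vegfa under low oxygen, had 3 of 18 genes higher and 3 lower in RGC-like against projection neuron-like cells, beside 21.1% and 28.1% of all genes (median log2 fold change 0.03 beside -0.12 over all genes). Egln3, an oxygen sensor, was higher (24.4 and 15.9 CPM against 0.380 and 0.126 CPM) and Ndrg1 lower (3.12 and 1.64 CPM against 45.3 and 44.7 CPM). In endothelial-like against RGC-like cells 6 of 18 were higher and 3 lower, led by Epas1 (350 and 288 CPM against 0.503 and 0.577 CPM), a hypoxia factor known from endothelium. The list did not move as one in either comparison.

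**Figure D5:**
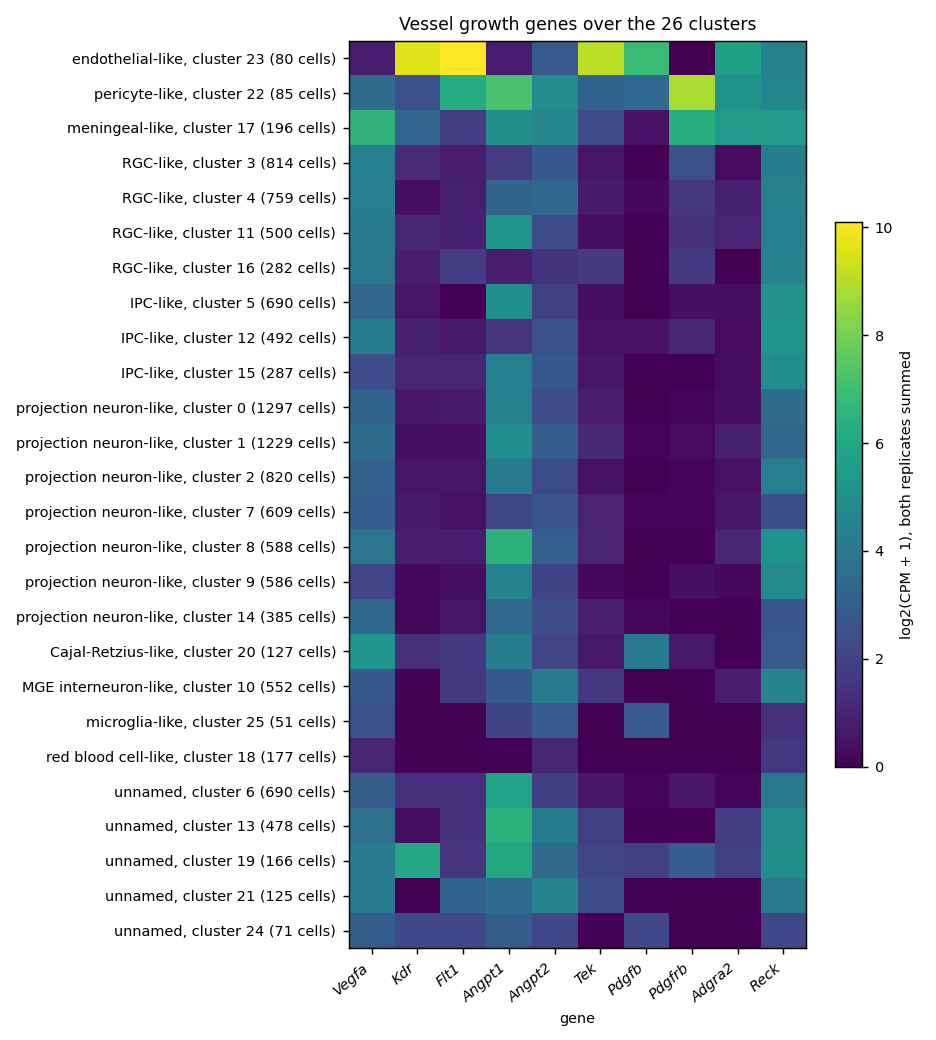
Level of the 10 genes (columns) in each of the 26 clusters (rows, ordered by class, with the number of cells), as log2(CPM + 1) of the summed UMIs of both replicates in colour. Angpt1 is bright in the pericyte-like cluster, in 1 of the 7 projection neuron-like clusters (89.6 CPM) and in 3 unnamed clusters (58.8 to 88.7 CPM), and Kdr is bright in the endothelial-like cluster and, at a lower level, in unnamed cluster 19.

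The genes most like each member were sought over the 26 clusters among 15262 genes with at least 100 UMIs, by Pearson's r of log2(CPM + 1). These values describe 26 points that share libraries and differ in depth. For Tek they were Ptprb (0.942), Adgrf5 (0.93) and Pglyrp1 (0.929), for Flt1 Osmr (0.964), Esam (0.927) and Pglyrp1 (0.91), and for Kdr Mmp28 (0.923), Ocln (0.921) and Clec14a (0.916). Pdgfb was most like Klf2 (0.862), Nfkbia (0.857) and Cd93 (0.857).

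For Pdgfrb the closest genes were Vstm4 (0.973), Heyl (0.95) and Gm32067 (0.946), and for Adgra2 the basement membrane genes Lama4 (0.966) and Col4a1 (0.957), then Gm26632 (0.956). The genes with broad patterns had looser partners. Vegfa was most like Eda (0.809), Stk39 (0.8) and Zbtb25 (0.782), Angpt1 like Atp1b2 (0.704), Kctd1 (0.695) and Dtx3 (0.689), Angpt2 like Runx2 (0.839), 4930594M22Rik (0.775) and Calhm2 (0.766), and Reck like Ptk7 (0.854), Uggt2 (0.851) and Igdcc3 (0.847).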

How the data were processed

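UMI counts per gene and cell barcode were deposited by the authors, 1 matrix per sample; the submitters' processing notes name Cell Ranger 7.0.0 and mm10. Annotation and intron setting were not given in the sources used here.

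Cells had to hold 1500 to 60000 UMIs with less than 10% of mitochondrial origin (710 and 1387 barcodes left out). Doublets were scored against 2 simulated ones per cell, and the top 4.93% and 7.1% (269 and 531) removed. From 2000 variable genes without members and list genes, 30 components, 15 neighbours and Leiden resolution 1.0 gave clusters. A cluster took the class with the largest share of its markers on (at least 3, and 3 GABAergic markers for interneuron classes), unless its 10 leading genes held more markers of another class, or it was shallow (median under 1/3 of its library's) with none of its own among them. Rebuilt names may differ from the study's.

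UMIs were summed per class and replicate and tested over all classes with edgeR's quasi-likelihood test (TMM, filterByExpr, Benjamini-Hochberg over 12540 genes, threshold 0.05, prior count 2). Each number is 1 library, so it pairs the sums; their deviations correlated at 0.0509 to 0.403 across genes, and the block was an alternative. CPM carry no TMM factor. Intervals are 95% Wilson or exact and, like floors of 3 UMIs, cover counting error only. Sequences came from RefSeq windows of 250 bases, held for 5 of the 10 members (Vegfa, Kdr, Flt1, Tek and Reck). Members and lists were chosen with earlier results of these data known. Of each list, up to 4 genes with the largest called fold change and the same sign in both replicates could be named, and 3 like genes per member. The tests were also run on simulated counts that held no library effect. Such counts cannot show how the tests behave where sums of 1 library correlate. Alternatives were DESeq2, library sizes without TMM, no filter on genes, the block, both classes alone, an older dispersion, stricter cells, doublets kept, resolution 2.0 and 2 rules on mixed vessel cells. Software was edgeR 4.0.16 and DESeq2 1.42.0 in R 4.3.3, with scanpy 1.11.5, igraph 0.11.9, scikit-learn 1.9.0, scipy 1.17.1, pandas 2.3.3, numpy 2.4.6 and matplotlib 3.10.9 in Python 3.11.15.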

Additional observations from a re-analysis of the deposited data

Results flagged for a closer look

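The clusters without a class name took part in no comparison, and 3 of them held members with over 3 UMIs in both replicates at levels above either replicate of the RGC-like, IPC-like, projection neuron-like and MGE interneuron-like classes. Kdr stood at 66.7 CPM in unnamed cluster 19, led by Ttr, Htr2c and Rspo2, with 49.5 CPM from 15 UMIs in 23 cells of replicate 1 and 69.5 CPM from 127 UMIs in 143 cells of replicate 3. This cluster had 8 of 8 RGC markers and 8 of 9 hem and choroid plexus markers on. Flt1 stood there at 0 and 2.19 CPM and Tek at 0 and 3.83 CPM, so the other endothelial receptors did not accompany Kdr in this cluster. The same cluster held Angpt1 at 69.9 CPM (79.2 and 68.4 CPM in the replicates) and Pdgfrb at 6.57 CPM (13.2 and 5.47 CPM, from 4 and 10 UMIs).

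Angpt1 stood at 58.8 CPM in unnamed cluster 6, led by Pcp4, Luzp2 and Pcdh7, with 32.9 and 66.1 CPM in 150 and 540 cells. In unnamed cluster 13, led by Adarb2, Dlx6os1 and Gnrh1, it stood at 88.7 CPM, with 85.6 CPM in the 447 cells of replicate 1 and 146 CPM from 22 UMIs in the 31 cells of replicate 3. That cluster came almost wholly from 1 library, and no test was made on these clusters.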

How the results depend on the processing

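Of the counts of genes past the threshold, 103 of 107 stayed within 1.5 times. Of RGC-like against projection neuron-like cells it was 6172, and 10585 with only both classes in the fit. Of RGC-like against IPC-like cells it was 2773, and 4889 with DESeq2 and 5594 with only both classes. Of IPC-like against projection neuron-like cells it was 4340, and 8070 with only both classes. The share of higher calls moved by over 10 points under library sizes alone for Cajal-Retzius-like (48.4% to 71.5%), RGC-like (43.0% to 60.6%) and IPC-like (37.9% to 57.4%) against projection neuron-like cells, with shifts of 0.275, 0.282 and 0.245 in the median log2 fold change (-0.172, -0.15 and -0.145 for endothelial-like, pericyte-like and meningeal-like against RGC-like cells), and with DESeq2 for the first (59.7%). Without the filter on genes it moved to 54.8% in RGC-like against projection neuron-like cells, and against RGC-like cells from 55.8% to 34.3% in pericyte-like (44.6% with doublets kept), from 52.3% to 35.2% in endothelial-like and from 56.4% to 41.2% in meningeal-like cells.

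Over the alternatives, 360 of 370 values of higher members, 146 of 166 of lower ones and 494 of 514 of uncalled ones kept their side of the threshold. The replicate block changed the calls of Vegfa (0.78 on the log2 scale, RGC-like against projection neuron-like) and Reck (-1.01, endothelial-like against meningeal-like) and of no other member. Without replicate 3, Tek in meningeal-like against RGC-like cells reversed to -0.49 (1.88 without replicate 1); values from 1 library alone are log2 ratios of CPM + 1, which understate low genes. The planned rule for mixed cells left out 80 of 85 pericyte-like cells, so no pericyte comparison was made with it. The endothelial-like (80) and pericyte-like (85) cells limit the depth: a gene at 0 in them was not detectable rather than absent.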

Other observations

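Among relatives of these genes, Vegfc, the lymphatic growth factor that also acts on VEGFR3 of brain vessels, stood at 37.5 and 51.0 CPM in the RGC-like cells of replicates 1 and 3 and at 4.44 and 3.88 CPM in the projection neuron-like cells (log2 fold change 3.01 ± 0.46, edgeR, adjusted p = 3.87e-05), the direction opposite to that of Angpt1 there. Nrp1, a co-receptor for VEGF-A and for semaphorins, ran the other way, with 21.7 and 12.3 CPM against 505 and 469 CPM (-5.14 ± 0.40, edgeR, adjusted p = 1.26e-08). Wnt7b, a ligand of the complex of Adgra2 and Reck, reached 187 and 119 CPM in the Cajal-Retzius-like cells. Pdgfra, the receptor known from fibroblasts, stood at 272 and 194 CPM in the meningeal-like cells and at 0 and 1.62 CPM in the pericyte-like cells, in which Pdgfrb was highest. In the RGC-like cells Itgb8, an integrin chain that activates TGF-beta next to vessels, stood at 118 and 113 CPM against 12.1 and 5.18 CPM in the projection neuron-like cells (3.37 ± 0.38, edgeR, adjusted p = 7.37e-07).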
